A study of Mus musculus with 6 samples.

Results

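The DNA replication and S phase genes are 41 genes, listed by symbol, of the 55487 genes in the tables of 6 RNA-seq libraries of mouse embryonic fibroblasts (MEFs). They were split by role into 16 genes of origin licensing and the replicative helicase, 14 of polymerases, clamp, clamp loader and ligation, 4 of nucleotide supply and 7 regulators and chromatin factors. Each was matched to its Ensembl identifier through the GRCm38 annotation, and all 41 passed the filter on low counts. Their expected counts ran from 70 to 14792 in a library. MEFs are primary connective-tissue cells grown out from embryos, and each passage is a detaching and replating of the culture. Untreated wild-type (WT) and knockout (KO) cultures were sampled at passages 2, 3 and 4, and each combination has 1 library. The gene knocked out, the strain and the embryo age are not given in the labels. Genotype was read from the library titles, whereas a separate tag calls 2 of the KO-titled libraries, those of passages 3 and 4, WT.

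Replication begins when the origin recognition complex, Cdc6 and Cdt1 load the Mcm2 to Mcm7 ring onto DNA, which is called licensing. Cdc45 and the GINS complex then turn the loaded ring into an active helicase. Polymerases alpha, delta and epsilon copy the strands with the sliding clamp Pcna, which replication factor C loads. Ribonucleotide reductase, thymidylate synthase and thymidine kinase supply the nucleotides. Many of these genes are known targets of E2F transcription factors, which the retinoblastoma protein family holds back until cyclin and CDK activity rises late in the first gap phase. Dividing fibroblasts express them in each cycle, and cells that leave the cycle express less of them.

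Short stretches before the start sites of 6 members are shown because these members include some with the largest fitted changes, together with Mcm6, whose window held the most matches. The sequences and start sites are those of RefSeq on build GRCm38.p6, printed 5′ to 3′ on the gene's strand, and capitals mark matches to E2F words on either strand. The words searched were TTTCCCGC, TTTGGCGC, TTTGCCGC and TTTCGCGC. Neighbouring words can overlap, so the 12 capitals in Mcm5 and the first 12 in Mcm6 each hold 2 matches.
Orc1: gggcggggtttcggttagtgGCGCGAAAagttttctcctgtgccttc
Cdc6: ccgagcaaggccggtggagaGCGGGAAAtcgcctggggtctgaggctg
Mcm5: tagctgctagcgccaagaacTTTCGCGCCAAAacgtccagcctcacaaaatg
Mcm6: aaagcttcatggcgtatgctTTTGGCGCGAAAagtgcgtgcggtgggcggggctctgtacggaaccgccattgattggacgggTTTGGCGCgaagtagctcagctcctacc
Pola1: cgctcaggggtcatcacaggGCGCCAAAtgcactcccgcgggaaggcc
Uhrf1: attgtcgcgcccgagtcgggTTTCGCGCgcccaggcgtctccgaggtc

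These stretches lie at chr4:108579407-108579453 on the plus strand (Orc1), chr11:98907993-98908040 on the plus strand (Cdc6) and chr8:75109336-75109387 on the plus strand (Mcm5). The others lie at chr1:128359725-128359835 on the minus strand (Mcm6), chrX:93632266-93632313 on the minus strand (Pola1) and chr17:56304108-56304155 on the plus strand (Uhrf1). Windows of 300 bases, 250 before and 50 after a start, were available for 33 of the 41 members. An E2F word was found in 14 of the 33 (42.4%), against 4.55% of the 11295 tested genes with a window. By role, the words were found in 8 of 12 licensing and helicase genes, 4 of 11 polymerase, clamp and ligation genes, 0 of 4 nucleotide supply genes and 2 of 6 regulators. Of 17 genes of mitosis with a window, 1 (5.88%) held an E2F word. The cell cycle homology region word (TTTGAA or TTTAAA, both strands) was in 15 of those 17 (88.2%), in 30.3% of the members and in 23% of tested genes. The CCAAT box, also on both strands, was in 60.6% of members and 42.7% of tested genes. The AP-1 word TGANTCA, searched for contrast, was in 0 of 33 members and 6.48% of tested genes. A match here is a match of letters, not a measured binding site.

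The 6 libraries held 24853121 to 67760880 expected counts. Nothing in the labels says that they came from separate embryos or cultures, so p-values cover only the spread among the 6. In the main test between genotypes that spread includes the change over passages, because passage is not a term of the fit. The remaining spread may be technical. Xist, expressed from the inactive X chromosome of female cells, was at 417 to 567 CPM in the KO libraries and 0.118 to 0.301 CPM in the WT libraries. The Y-linked genes Ddx3y, Eif2s3y, Kdm5d and Uty were lower in KO at each passage. Genotype therefore cannot be told apart from the sex of the cells. Over Xist and these 4 genes the median log2 CPM difference, KO minus WT, was -9.28, -9.16 and -6.55 at passages 2, 3 and 4. All 5 were higher in KO passage 4 than in KO passage 3, and the cause was not tested. CPM is a count relative to the TMM-adjusted size of its library. In bulk RNA, fewer cells in S phase and less RNA per cell cannot be told apart.

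Members differed widely in abundance. Compared per length as TPM (transcript abundance scaled for length), the mean over 6 libraries was 99.4 ± 26.4 (SD) for Rrm2, the small subunit of ribonucleotide reductase. It was 97.0 ± 21.1 TPM for the clamp Pcna and 92.8 ± 11.8 TPM for the large reductase subunit Rrm1. These 3 levels overlap within their spread. The lowest were Gins1 at 6.97 ± 1.90 TPM, Orc1 at 6.01 ± 2.08 TPM and Gins3 at 4.44 ± 0.613 TPM. The 6 subunits of the Mcm2 to Mcm7 ring ranged from 32.5 ± 9.49 TPM for Mcm5 to 68.6 ± 16.6 TPM for Mcm6, with Mcm7, Mcm4, Mcm3 and Mcm2 between them at 60.9, 45.7, 40.2 and 34.1 TPM. The ± SD ranges of neighbours in that order overlap.

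Most members were highest in the KO culture of passage 2 and lowest in a later culture. Of the 41, 30 had their highest CPM in KO passage 2, 5 in KO passage 3 and 4 in WT passage 2. The lowest value was in KO passage 4 for 20 members and in WT passage 3 for 13. As a deviation from each gene's mean over the libraries, the median log2 CPM of the members was 0.07, -0.20 and -0.16 in WT at passages 2, 3 and 4. In KO it was 0.35, 0.24 and -0.25. All 4 roles had their highest median in KO passage 2. The 4 medians in KO passage 4 lay between -0.28 and -0.24.

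**Figure D1:**
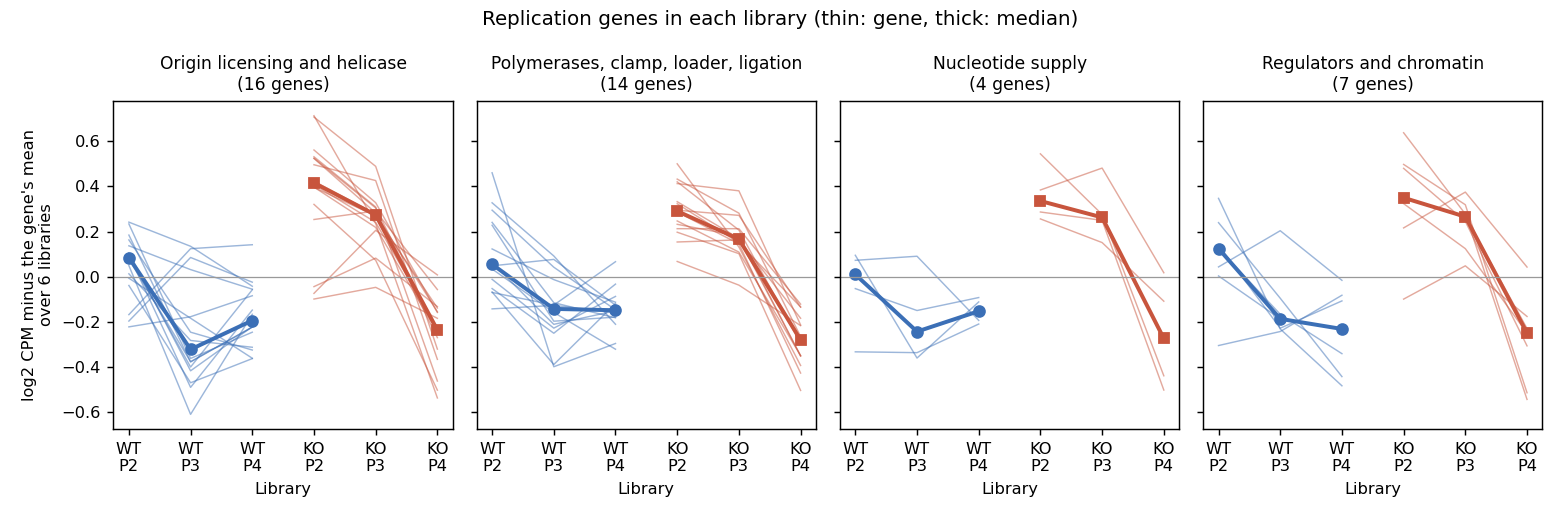
Deviation of each replication gene's log2 CPM from its own mean over 6 libraries (y axis) in each WT and KO library of passages 2 to 4 (P2 to P4, x axis), by role. Thin lines are genes and thick lines with points are medians; in every panel the 3 KO medians are highest at P2 and lowest at P4.

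Across passages, 6 of the 41 members fell and 0 rose, in a fit of a linear change per passage that allows for genotype (edgeR, adjusted p under 0.05 over 16603 genes). They were the DNA methylation cofactor Uhrf1, cyclin E2 (Ccne2), the licensing factor Cdc6, the polymerase alpha catalytic subunit Pola1, DNA ligase 1 (Lig1) and the chromatin assembly subunit Chaf1a. Of all genes tested, 3.48% fell, 2.78% rose and 6.25% changed in either direction. The median slope of the members was -0.22 on the log2 scale per passage, against 0.00 for all genes. The fitted slope was negative in 38 of 41 members (92.7%) and in 49.1% of all genes. An unadjusted p under 0.05 was found for 24 members (58.5%), against 21.2% of all genes. The level in CPM decreased at each step in both genotypes for 13 members (31.7%), against a background of 8.91%. The count of 6 became 0 without the WT or the KO library of passage 2 or without the KO library of passage 4. It was 2 (Ccne2 and Uhrf1) without the KO library of passage 3. Without the WT library of passage 3, Cdc6 and Chaf1a were not called and Mcm6 was. Without the WT library of passage 4, Lig1, Ccne2 and Chaf1a were not called and Mcm3, Mcm5 and Tyms were. DESeq2 called 13 members, all lower, where it called 5.65% of all genes lower.

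**Figure D2:**
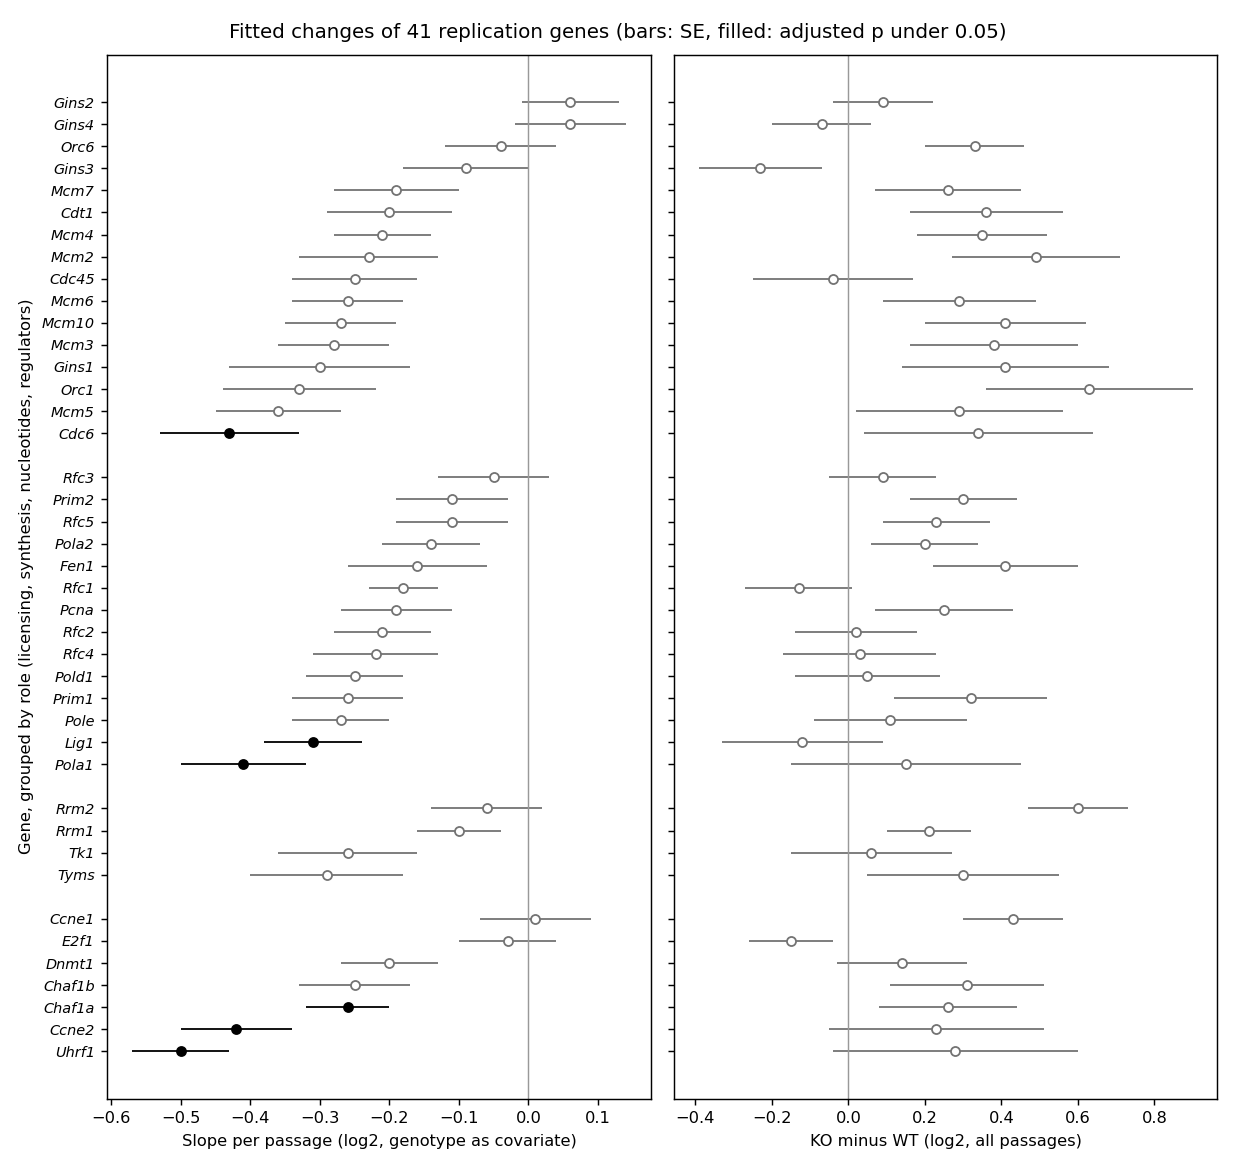
Fitted log2 change of the 41 genes per passage (left) and for KO minus WT (right), on the x axes, with genes on the y axis grouped by role. Points are estimates, bars are SE, and filled points have an adjusted p under 0.05; 6 genes are filled on the left and 0 on the right.

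Among the licensing and helicase genes the median slope was -0.24 per passage and 1 of 16 fell, a share near the 3.48% of all genes. An unadjusted p under 0.05 was nevertheless found for 9 of the 16 (56.2%), against 21.2% of all genes (edgeR). DESeq2 also called Mcm5, Mcm6 and Mcm10 lower, where it called 5.65% of all genes lower. Cdc6 (ENSMUSG00000017499, GRCm38 chromosome 11, 98907801 to 98923940), an ATPase that helps to load the Mcm ring, was at 17.4, 13.1 and 12.4 CPM in WT at passages 2, 3 and 4 and at 25.5, 18.3 and 10.7 CPM in KO. In CPM it decreased at every step. The KO library was the higher of the pair at passages 2 and 3 and, in CPM, the lower at passage 4. In TPM, Cdc6 was at 11.3, 7.22 and 7.27 in WT and 15.3, 11.9 and 7.30 in KO. Its slope was -0.43 ± 0.10 (SE, adjusted p = 0.0434). Mcm5, a subunit of the ring, was at 54.0, 35.7 and 38.7 CPM in WT and 66.4, 56.9 and 33.3 CPM in KO, with a slope of -0.36 ± 0.09 (adjusted p = 0.0663). In WT the level at passage 4 was close to that at passage 3, while in KO it was lower at each step. Orc1, the ATPase subunit of the origin recognition complex, was at 8.04, 5.96 and 6.42 CPM in WT and 13.5, 11.6 and 6.61 CPM in KO, with a slope of -0.33 ± 0.11 (adjusted p = 0.141). Mcm2 was at 61.8, 39.1 and 53.2 CPM in WT and 88.2, 75 and 53.5 CPM in KO, with a slope of -0.23 ± 0.10 (adjusted p = 0.271). Mcm10, which stabilises the helicase, was at 17.8, 14.5 and 14.2 CPM in WT and 25.4, 21.8 and 14.9 CPM in KO. For these 3 genes the KO values of passages 2 and 3 were above all WT values, and the KO value of passage 4 was within the WT range. Gins2 and Gins4, both GINS subunits, were the licensing and helicase members with a positive slope, each 0.06 (adjusted p = 0.686 and 0.736).

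Polymerase, clamp and ligation genes had a median slope of -0.20 per passage, and 2 of 14 fell (3.48% of all genes). Pola1 (ENSMUSG00000006678, chromosome X, 93304767 to 93632155), the only X-linked member, was at 46.5, 25.6 and 27.5 CPM in WT and 47.8, 37.0 and 25.7 CPM in KO. Its slope was -0.41 ± 0.09 (adjusted p = 0.0337), and its level at passage 4 was 40.7% below passage 2 in WT and 46.3% below in KO. Lig1 (ENSMUSG00000056394, chromosome 7, 13277283 to 13311433), which seals nicks between Okazaki fragments, was at 49.7, 42.2 and 34.2 CPM in WT and 45.4, 42.5 and 27.9 CPM in KO, with a slope of -0.31 ± 0.07 (adjusted p = 0.0373). It decreased at each step in both genotypes in CPM, but in KO it was at 34.5, 35.3 and 25.4 TPM. The polymerase epsilon catalytic subunit Pole was at 53.2, 39.6 and 40.1 CPM in WT and 57.2, 51.1 and 35.6 CPM in KO, with a slope of -0.27 ± 0.07 (adjusted p = 0.0638). Pcna was at 70.3, 60.5 and 66.7 CPM in WT and 94.9, 81.8 and 57.7 CPM in KO, with a slope of -0.19 ± 0.08 (adjusted p = 0.226). In WT, Pcna at passage 4 was 5.1% below passage 2, and in KO it was 39.2% below. The primase subunits Prim1 and Prim2 had slopes of -0.26 and -0.11, and Prim2 in WT stayed between 18.4 and 18.8 CPM.

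The 4 nucleotide supply genes had a median slope of -0.18 per passage, and 0 passed the test (edgeR; 2 had an unadjusted p under 0.05, and DESeq2 called 0). Thymidylate synthase (Tyms) was at 28.4, 20.7 and 24.6 CPM in WT and 38.8, 32.2 and 19.6 CPM in KO, with a slope of -0.29 ± 0.11 (adjusted p = 0.176). Thymidine kinase 1 (Tk1) was at 23.7, 24.0 and 19.7 CPM in WT and 27.5, 26.8 and 15.9 CPM in KO, with a slope of -0.26 ± 0.10 (adjusted p = 0.176). Both had their lowest value in KO passage 4. Rrm1 was at 184, 172 and 179 CPM in WT and 228, 212 and 177 CPM in KO, with a slope of -0.10 ± 0.06 (adjusted p = 0.385).

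Among regulators and chromatin factors the median slope was -0.25 per passage and 3 of 7 fell (3.48% of all genes). Uhrf1 (ENSMUSG00000001228, chromosome 17, 56303321 to 56323486), which recognises hemimethylated DNA behind the fork and brings in Dnmt1, was at 99.7, 66.7 and 56.0 CPM in WT and 122, 95 and 53.7 CPM in KO. Its slope was -0.50 ± 0.07 (adjusted p = 0.00855), the steepest of the 41, with passage 4 below passage 2 by 43.8% in WT and 55.9% in KO. Ccne2 (ENSMUSG00000028212, chromosome 4, 11191351 to 11204779), a cyclin that activates Cdk2 at S phase entry, was at 26.5, 21 and 16.5 CPM in WT and 31.7, 28.0 and 15.7 CPM in KO, with a slope of -0.42 ± 0.08 (adjusted p = 0.0275). Chaf1a (ENSMUSG00000002835, chromosome 17, 56040439 to 56072289), the large subunit of chromatin assembly factor 1, was at 51.4, 42.0 and 37.2 CPM in WT and 60.1, 56.7 and 40.2 CPM in KO, with a slope of -0.26 ± 0.06 (adjusted p = 0.046). All 3 decreased at each step in both genotypes in CPM. In TPM only Uhrf1 did so. Ccne2 in WT was at 29.4, 20.9 and 22.9 TPM, and Chaf1a in KO at 20.3, 21.7 and 17.1 TPM. The other E cyclin, Ccne1, had a slope of 0.01 ± 0.08 (adjusted p = 0.946). E2f1, itself an activator of S phase genes, was at 29.7, 33.2 and 28.5 CPM in WT and 26.9, 29.8 and 25.5 CPM in KO, with a slope of -0.03 ± 0.07 (adjusted p = 0.841). Its level in each KO library was below that of the WT library of the same passage. The difference between the slopes of Ccne1 and Ccne2 was not tested.

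**Figure D3:**
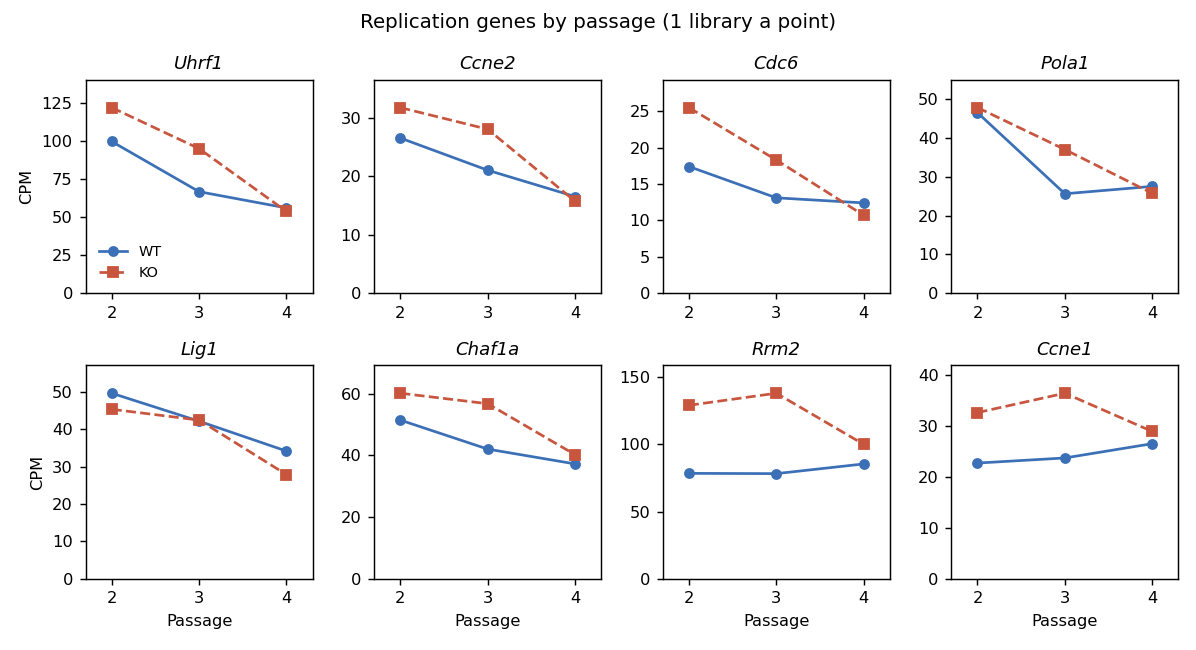
CPM (y axis, from 0) of the 6 genes that fell with passage and of Rrm2 and Ccne1, at passages 2, 3 and 4 (x axis). Each point is 1 library, circles WT and squares KO; in Rrm2 and Ccne1 each KO point lies above all WT points.

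Between genotypes, 0 of the 41 members passed the test, against 2.48% of all genes tested (0.934% higher and 1.55% lower in KO; edgeR). An unadjusted p under 0.05 was found for 4 members (9.76%), against 21.3% of all genes, in this fit without passage. With passage as a block (edgeR) it was found for 11 members (26.8%), against 29.7% of all genes. DESeq2 called 2 members higher in KO, Rrm2 and Ccne1, where it called 4.48% of all genes higher. The fitted change was positive in 35 of 41 members (48.4% of all genes), with a median of 0.26 on the log2 scale against -0.01 for all genes. Every KO library was above every WT library in 3 members, Orc6, Rrm2 and Ccne1 (7.32%, background 13.1%). Every KO library was below every WT library in Gins3 alone (background 14.1%), by 5.94 against 5.96 CPM at the closest, and in TPM its groups overlapped. The median was 0.34 for licensing and helicase genes, 0.13 for polymerase, clamp and ligation genes, 0.25 for nucleotide supply and 0.26 for regulators. Differences between roles were not tested.

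Rrm2 (ENSMUSG00000020649, chromosome 12, 24708241 to 24714146), the subunit whose supply sets reductase activity in S phase, was at 78.4, 78.2 and 85.4 CPM in WT and 129, 138 and 100 CPM in KO. The lowest KO value was above the highest WT value, and the means were 80.7 ± 4.13 and 122 ± 19.6 CPM (SD, n = 3). The change was 0.60 ± 0.13 on the log2 scale (edgeR, adjusted p = 0.0649), and it passed the threshold with passage as a block (0.59, adjusted p = 0.0306), where 4.69% of all genes were called higher. It also passed without the KO library of passage 4 (0.72, adjusted p = 0.0362) or without both passage 4 libraries (0.79, adjusted p = 0.0407), where 0.941% of all genes were called higher. Over the alternatives its adjusted p ran from 0.00277 with DESeq2 to 1 in a test against a minimum log2 change of 0.5. Ccne1 was at 22.7, 23.7 and 26.5 CPM in WT and 32.6, 36.4 and 28.9 CPM in KO, a change of 0.43 ± 0.13 (edgeR, adjusted p = 0.117; DESeq2, 0.0383). Its groups did not overlap. Orc6, the sixth subunit of the origin recognition complex, was at 18.9, 19.5 and 20.8 CPM in WT and 26.3, 27.0 and 21.2 CPM in KO (0.33 ± 0.13, adjusted p = 0.193). At passage 4 the KO value was only slightly above the highest WT value.

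The largest fitted change of the 41 was that of Orc1, 0.63 ± 0.27 (adjusted p = 0.232), followed by Rrm2 and by Mcm2 at 0.49 ± 0.22 (adjusted p = 0.264). For Orc1 and Mcm2 the KO libraries of passages 2 and 3 were above all WT libraries and that of passage 4 was not. Mcm10 had a change of 0.41 ± 0.21 (adjusted p = 0.297). Fen1, the flap endonuclease of Okazaki fragment processing, was at 26.0, 20.8 and 25.1 CPM in WT and 36.3, 35.5 and 23.5 CPM in KO (0.41 ± 0.19, adjusted p = 0.261). Prim1 was at 16, 14.0 and 12.5 CPM in WT and 21.1, 19.0 and 13.0 CPM in KO (0.32 ± 0.20, adjusted p = 0.402). Prim2 was at 18.6, 18.8 and 18.4 CPM in WT and 25.2, 24.8 and 18.7 CPM in KO (0.30 ± 0.14, adjusted p = 0.272). In these 3 genes the KO values of passages 2 and 3 were above all WT values. Tyms and Rrm1 had changes of 0.30 ± 0.25 and 0.21 ± 0.11 (adjusted p = 0.540 and 0.349). Chaf1b, the middle subunit of chromatin assembly factor 1, was at 18.6, 16.3 and 15.8 CPM in WT and 25.9, 22.0 and 15.0 CPM in KO (0.31 ± 0.20, adjusted p = 0.419). Uhrf1 had a change of 0.28 ± 0.32 (adjusted p = 0.671), and the other way lay Gins3, at 7.26, 6.74 and 5.96 CPM in WT and 5.73, 5.94 and 5.40 CPM in KO (-0.23 ± 0.16, adjusted p = 0.454).

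Within passages the KO library was above the WT library for most members at passages 2 and 3 and below it for most at passage 4. These are differences of 1 library against 1, with no replicate and no test. At passage 2 the KO value was higher in 36 of 41 members (46.9% of all genes), with a median log2 CPM difference of 0.30. At passage 3 it was higher in 37 (48.5% of all genes), with a median of 0.43. At passage 4 it was higher in 12 (49.5% of all genes), with a median of -0.07 and a range from -0.45 for Cdc45 to 0.23 for Rrm2. The KO value was higher by 0.5 or more on the log2 CPM scale in 6 members at passage 2 (14.6%, all genes 12.5%), 16 at passage 3 (39.0%, all genes 14.4%) and 0 at passage 4 (all genes 12.9%). It was lower by 0.5 or more in 0 members at each passage, against 17.2%, 19.2% and 10.9% of all genes. On the log2(TPM + 1) scale the all-gene medians of KO minus WT were themselves -0.12, 0.16 and 0.18 at passages 2, 3 and 4. Relative to the all-gene medians of log2(TPM + 1), the members' medians were 0.27, 0.48 and -0.05, and relative to the all-gene medians of log2 CPM they were 0.33, 0.45 and -0.07. Without that centring the TPM median at passage 4 was 0.13, so its sign depends on the scale.

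**Figure D4:**
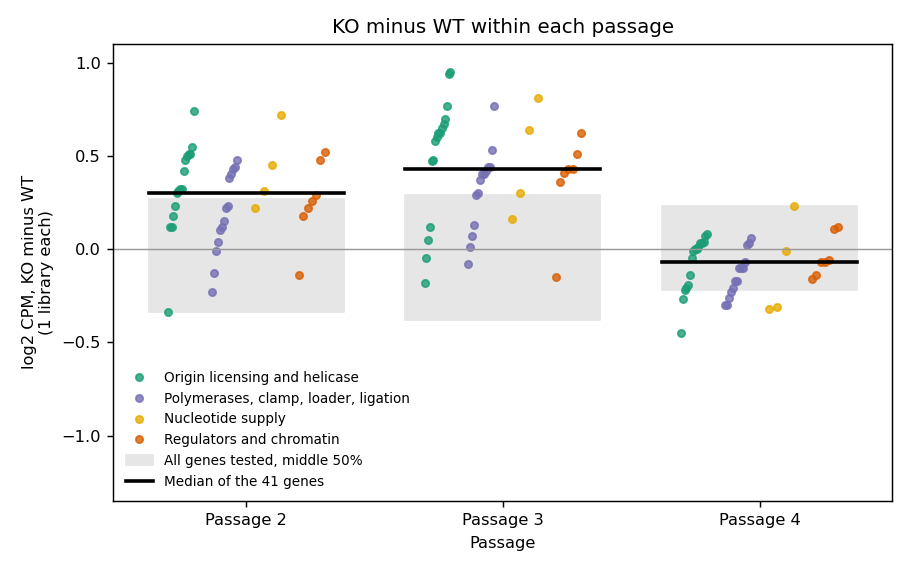
Log2 CPM of KO minus WT (y axis) for each of the 41 genes at passages 2, 3 and 4 (x axis), 1 library against 1. Points are genes coloured by role, black lines are the medians (0.30, 0.43 and -0.07) and grey boxes span the middle 50% of all genes tested.

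Each step within a genotype is a difference of 1 library from 1, with no test of its own. In WT, 33 of 41 members were lower at passage 3 than at passage 2 (51.1% of all genes; median -0.26), and 19 were lower at passage 4 than at passage 3 (50.7% of all genes; median 0.02). In KO, 33 were lower at passage 3 than at passage 2 (49.0% of all genes; median -0.13), and all 41 were lower at passage 4 than at passage 3 (48.8% of all genes; median -0.50). The smallest of those last decreases was 0.14 and the largest 0.83 on the log2 scale. The difference between the KO and WT slopes was negative in 39 of 41 members (46.7% of all genes), with a median of -0.20 against 0.02 for all genes. Tested gene by gene, 0 of 41 members passed, and 0 of all genes tested (0%; edgeR, 2 residual degrees of freedom). An unadjusted p under 0.05 was found for 2 members (4.88%), against 6.85% of all genes, and DESeq2 also called 0 members. The smallest adjusted p of the 41 was 0.680, for Cdc6, whose slope was more negative in KO by 0.38. In the slopes of each genotype alone, 0 members passed in WT (0.807% of all genes; median -0.13, 7 members, 17.1%, with an unadjusted p under 0.05 against 16.4% of all genes). In KO 0 passed (0.952% of all genes; median -0.32, 28 members, 68.3%, with an unadjusted p under 0.05 against 16.6% of all genes).

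Replication genes outside the 41 had slopes of the same sign on the median. The counts below stand beside 3.48% of all genes that fell and 2.78% that rose. Of 19 further licensing and checkpoint genes (median -0.22), 11 (57.9%) had an unadjusted p under 0.05, against 21.2% of all genes (edgeR). DESeq2 called 9 of the 19 lower, where it called 5.65% of all genes lower. In the main fit 0 rose with passage and 1 fell, a share near that of all genes. It was Wdhd1, the adaptor between helicase and polymerase alpha, at 27.4, 19.2 and 17.4 CPM in WT and 30.5, 24.0 and 16.2 CPM in KO (slope -0.39, adjusted p = 0.0203). Of 17 further synthesis genes, 3 fell (median -0.14): the accessory polymerase subunits Pole2 (-0.51, adjusted p = 0.0129) and Pold3 (-0.34, adjusted p = 0.0276), and the clamp unloader Atad5 (-0.28, adjusted p = 0.0385). Of 16 further nucleotide genes 0 passed (median -0.10; 4 with an unadjusted p under 0.05, 25% against 21.2% of all genes; DESeq2 0), with the smallest adjusted p for the dUTPase Dut (-0.35, 0.124). Of 28 further regulators, 10 had a positive slope (median -0.08), 0 rose and 4 fell. They were the chromatin remodeller Hells (-0.38, adjusted p = 0.0188), the activator E2f2 (-0.65, adjusted p = 0.0295), cyclin A2 (Ccna2; -0.37, adjusted p = 0.0359) and the pocket protein gene Rbl1 (-0.29, adjusted p = 0.0484). The level of E2f2 was low, at 1.24 to 4.52 CPM. All 3 counts of genes that fell in the main fit became 0 without the KO library of passage 2 or of passage 4. Those of synthesis genes and regulators also became 0 without the WT library of passage 2 or of passage 4.

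The inhibitors of cyclin-dependent kinases, which block entry into S phase, were measured beside these. Of 7, 3 rose with passage and 0 fell (2.78% and 3.48% of all genes). Cdkn2a, the locus of p16INK4a and p19ARF, which the gene-level tables do not separate, was at 7.19, 13.6 and 21.4 CPM in WT and 8.80, 15.0 and 22.8 CPM in KO (slope 0.74 ± 0.07, adjusted p = 0.00237). Cdkn1a, which encodes p21 and is a p53 target, was at 178, 279 and 410 CPM in WT and 247, 376 and 446 CPM in KO (0.51 ± 0.07, adjusted p = 0.0058). Cdkn2b was at 22.1, 29.7 and 38.9 CPM in WT and 22.9, 28.8 and 37.5 CPM in KO (0.38 ± 0.06, adjusted p = 0.00967). All 3 were higher at each later passage in both genotypes, and leaving out 1 library left 1 to 3 of them called, with 1 left without the WT library of passage 2 or of passage 4. The median slope of the 7 was -0.11, since the other 4 had negative slopes.

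Of 21 genes of the later cell cycle phases (the second gap phase and mitosis), 7 fell with passage and 0 rose. Of all genes 3.48% fell and 2.78% rose, and the median slope of the 21 was -0.27. The proliferation marker Mki67 was at 380, 309 and 222 CPM in WT and 345, 276 and 175 CPM in KO (slope -0.44 ± 0.06, adjusted p = 0.00782). Topoisomerase 2 alpha (Top2a), which untangles sister chromatids, was at 340, 268 and 207 CPM in WT and 300, 261 and 174 CPM in KO (-0.38 ± 0.06, adjusted p = 0.0113). The others were the kinetochore genes Cenpf, Cenpe, Bub1 and Bub1b and the spindle motor Kif11. The count was 0 without the KO library of passage 2, the KO library of passage 4 or the WT library of passage 4, and 1 without the WT library of passage 2. Between genotypes their median change was 0.03 on the log2 scale, beside 0.26 for the 41 replication genes. The KO library was above the WT library in 12 of the 21 at passage 2, in 15 at passage 3 and in 0 at passage 4, against 46.9%, 48.5% and 49.5% of all genes.

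**Figure D5:**
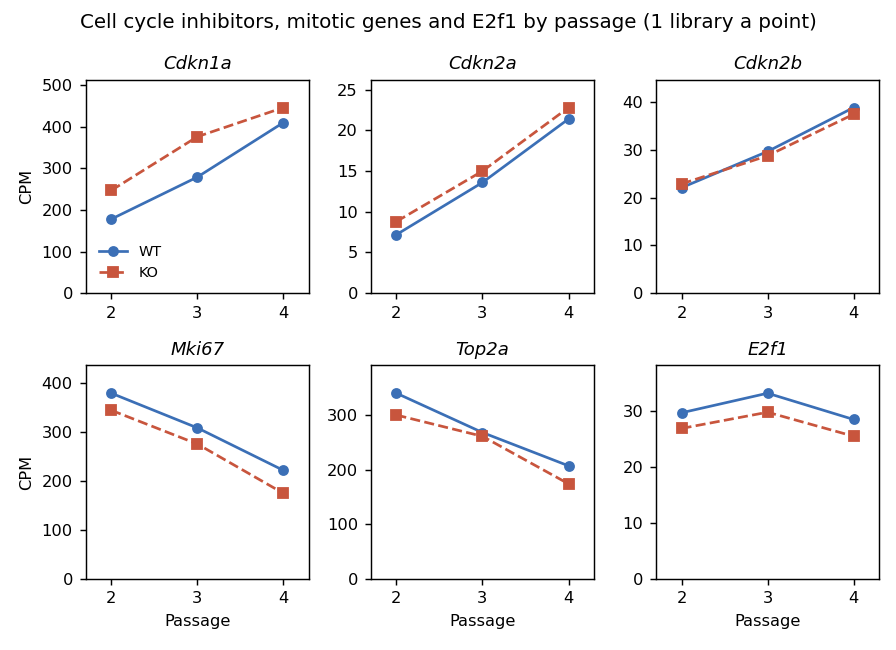
CPM (y axis, from 0) of the CDK inhibitor genes Cdkn1a, Cdkn2a and Cdkn2b, the later-phase genes Mki67 and Top2a, and E2f1 at passages 2, 3 and 4 (x axis), 1 library a point. The 3 inhibitors are higher and Mki67 and Top2a lower at each later passage in both genotypes, while E2f1 stays between 25.5 and 33.2 CPM.

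Between genotypes, 0 of the 87 tested genes in these lists (mitotic genes aside) passed the test (edgeR; 19 with an unadjusted p under 0.05, 21.8% against 21.3% of all genes). With DESeq2, 10 of the 87 were called higher and 2 lower in KO, where it called 4.48% of all genes higher and 5.52% lower. The smallest adjusted p in each list was that of Orc2 among licensing genes (0.57 ± 0.17, 0.119), Rpa1 of the single-strand binding complex (0.33 ± 0.13, 0.197), the pyrimidine enzyme Umps (0.71 ± 0.15, 0.0588), the repressor E2f6 (0.51 ± 0.11, 0.055) and the inhibitor Cdkn1c (-0.68 ± 0.16, 0.072). Among mitotic genes it was that of Cdc20 (0.31 ± 0.18, 0.376). With passage as a block, 8 of the 87 were called higher and 3 lower in KO (4.69% and 6.37% of all genes). Orc2 (adjusted p = 0.039), Umps (0.0206), E2f6 (0.026) and Cdkn1c (0.0244) were then among the called genes, and Rpa1 was not (0.0963).

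Markers of other cells moved with passage and genotype. Of all genes tested, 3.48% fell with passage, and 0.934% were higher and 1.55% lower in KO. The summed level of 14 macrophage markers was 435, 233 and 64.7 CPM in WT and 312, 98.2 and 47.3 CPM in KO at passages 2, 3 and 4, and 13 of the 14 fell with passage. None of the 14 was at 0 in all libraries. The sum of 8 epithelial markers went from 29.2 to 5.50 CPM in WT and from 30.4 to 14.2 CPM in KO, and 4 of 8 fell. The 10 endothelial markers summed to 240 to 277 CPM in WT and 115 to 181 CPM in KO, but most of that sum was Flt1, at 214 to 261 CPM in WT and 93.8 to 152 CPM in KO. Of the 9 endothelial markers tested, 6 had a positive change in KO (median 0.55) and Flt1 alone was called, lower, while 4 fell with passage, Pecam1, Cdh5, Vwf and Esam. The 9 muscle markers summed to 24.2 to 58.8 CPM in WT and 53.7 to 151 CPM in KO, and of the 6 tested 1 was higher in KO and 4 fell with passage. The 11 fibroblast markers were present in every library, at sums of 38453 to 50271 CPM in WT and 22114 to 26185 CPM in KO, and 5 of 11 were lower in KO. Mitochondrial transcripts summed to 5382 to 8193 CPM in WT and 7340 to 8301 CPM in KO. The part of these markers in the members' values was not tested.

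Some member counts are uncertain because their transcripts share sequence or overlap another gene and no source used here says whether counting used strand. The share of 64-base words also found in transcripts of another gene was 74.9% for Fen1 (Gm10143, opposite strand), 65% for Gins2 (Gse1, opposite strand) and 48.8% for Chaf1a (Ubxn6, opposite strand). It was 11.3% to 17.1% for Mcm7, Pcna, Rfc2, Ccne2 and Uhrf1, of which Pcna shares with a processed copy. It was under 5% for 30 members. Of the related genes named, Orc2 shared 25.8% (Nif3l1) and Cdkn1c 23.3% (Gm44732).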

How the data were processed

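The submitters' processing notes name Trimmomatic 0.39, RSEM and build GRCm38. The RSEM version, annotation, aligner and use of strand are not given in these sources. The tables the authors deposited hold expected counts (ambiguous reads shared among genes by a model) and TPM (transcript abundance corrected for length). The deposited FPKM values (fragments scaled by length and depth) were not used, and the effective lengths served in 1 alternative. Symbols came from GENCODE M21, which matched 55227 of 55487 genes.

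Rounded expected counts with TMM scaling entered edgeR 4.0.16 (quasi-likelihood, robust, 2-sided; R 4.3.3) after a filter by genotype (minimum count 10) that left 16603 genes, with Benjamini-Hochberg adjustment over all of them. Residual degrees of freedom were 4 for genotype alone and 3 for the passage slope with genotype. Within-passage differences used log2 CPM with a prior count of 2. Alternatives used DESeq2 1.42.0, limma 3.58.1, other scalings and filters, and left out libraries. The fits were also run on simulated counts of independent libraries, with changes larger than any fitted for the members. That run does not measure how well changes of the members' size are found.

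Deviations of same-passage libraries of the 2 genotypes were positively correlated (0.488, 0.137 and 0.416 at passages 2, 3 and 4), most weakly at passage 3. The libraries can thus be paired by passage, which the main test between genotypes left out and the fit with passage as a block used. A count of 0 allows up to 3 counts, 0.0431 to 0.124 CPM, for counting error only. Members given in every library were the 3 with the largest absolute change in each role and comparison, every called member, and Pcna, Mcm2, Ccne1 and E2f1. From each related list the text names the called genes, up to 5, or the gene with the smallest adjusted p, some by their fitted change alone. Orc6, Gins3, Bub1 and Bub1b, and slopes of Gins2, Gins4 and Prim2, were added after their values were seen. The members and lists were chosen with earlier results of these data known. Chtf8, whose symbol 2 genes share, was left out.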

Additional observations from a re-analysis of the deposited data

How the results depend on the processing

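The number of members called between genotypes, 0, became 1 (Rrm2) with passage as a replicate block, without a filter on low counts and without the passage 4 libraries, and 2 with DESeq2. Leaving out 1 library at a time gave 0 to 1. The other scalings, log2(TPM + 1), effective lengths and the minimum change of 0.5 also gave 0, as did the genotype tag, by which 1 KO library is set against 5 WT libraries, and the block changed no call of another member. The median change, 0.26, ran from 0.11 to 0.42 over all alternatives. The 6 members that fell with passage became 13 with DESeq2, where 5.65% of all genes were called lower. They became 23 without the filter, 3 (Cdc6, Pola1, Uhrf1) with limma on log2(TPM + 1) and 0 without the genotype covariate. With effective lengths as offsets (edgeR), Ccne2 was no longer called (-0.30, adjusted p = 0.131) and Pold1 was (-0.32, adjusted p = 0.0463). The call of Ccne2 was thus lost in both settings that account for length. For these settings other than DESeq2 the share of all genes called is not given here, so the counts cannot be set against a background. Leaving out 1 library gave 0 to 6. The 6 without the WT library of passage 4 were not the same genes, with Mcm3, Mcm5 and Tyms in place of Lig1, Ccne2 and Chaf1a. The count was 0 for passage 3 against 2, for passage 4 against 3, and for the slope in WT or in KO alone. These 4 contrasts and the settings that leave out both libraries of passage 3 or 4 were added after seeing the data. Under no alternative was a member called higher with passage, and the median slope, -0.22, ran from -0.32 to -0.13. Signs changed only for members not called in the comparison concerned. By the genotype tag, the change between genotypes was 0.37 for Cdc45, -0.10 for Gins2, 0.07 for Rfc1 and 0.21 for Lig1. The slope of Gins2 was -0.16 with effective lengths and -0.13 with TPM. Leaving out 1 library at a time, the slope ran from -0.12 to 0.06 for Orc6, from -0.15 to 0.06 for Rfc3, from -0.15 to 0.07 for Rrm2 and from -0.04 to 0.15 for Gins4, with the change of sign without KO replicate 3 (passage 4) or, for Gins4, WT replicate 1 (passage 2). The causes were not tested. With 2 to 4 residual degrees of freedom, small changes may go undetected.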

Other observations

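Of the 16 further nucleotide synthesis and salvage genes, 13 had a positive fitted change in KO, with a median of 0.44 on the log2 scale against -0.01 for all genes, and 9 had an unadjusted p under 0.05 (56.2% against 21.3%). Within passages 2, 3 and 4 the median log2 CPM difference was 0.60, 0.76 and 0.05, 1 library against 1. At passage 4 the KO library was the higher in 10 of the 16 (49.5% of all genes). With passage as a block, 4 of the 16 were called higher in KO by edgeR, where 4.69% of all genes were. These 4 were chosen for naming after their values were seen. The folate enzyme Shmt1 was at 7.40, 3.46 and 7.91 CPM in WT and 16.1, 11.8 and 11.3 CPM in KO (block, adjusted p = 0.0308). The deaminase Dctd was at 10.3, 7.29 and 12.2 CPM in WT and 19.6, 19.9 and 16.8 CPM in KO (0.0267). Umps was at 27.4, 22.1 and 24.9 CPM in WT and 44.6, 44.4 and 33.1 CPM in KO (0.0206), and Ppat, the first enzyme of purine synthesis, at 20.1, 15.6 and 19.9 and at 33.8, 31.7 and 24.4 CPM (0.0328). In all 4 every KO library was above every WT library, as in 8 of the 16 and in 13.1% of all genes. The 4 were picked for being called higher in KO in the same libraries, so their separation is not separate evidence. DESeq2 called 7 of the 16 higher in KO, where it called 4.48% of all genes higher.

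Cyclin D1 (Ccnd1), also named after its values were seen, was at 74.9, 76.7 and 118 CPM in WT and 113, 139 and 153 CPM in KO, with a change of 0.59 ± 0.20 between genotypes (edgeR, adjusted p = 0.157, and 0.0191 with the block). Its slope was 0.27 ± 0.07 per passage (adjusted p = 0.0534), opposite in sign to the median of the replication genes. About 21% of its transcript words are shared with an overlapping gene on the opposite strand.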
